A study of Mus musculus with 4 samples.

Results

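The 10 genes examined here encode proteins that place or read methylation of lysine 9 of histone H3 (H3K9) and keep transposons silent: Tasor, Mphosph8 and Morc2a of the HUSH pathway, the methyltransferase gene Setdb1 with its cofactor genes Atf7ip and Trim28, the methyltransferase gene Ehmt1, and Cbx1, Cbx3 and Cbx5, which encode the HP1 proteins. They were taken by symbol from the deposited counts, where all 10 were found among 25239 gene symbols. The counts came from 4 polyA RNA libraries of mouse embryonic stem cells (mESC) of the genotype Ogt fl/fl, in which loxP sites flank part of Ogt, the gene of O-GlcNAc transferase. In the Ogt iKO group (induced knockout, 2 libraries) the cells had 6 days of 4-OHT (4-hydroxytamoxifen), which switches on tamoxifen-dependent recombinases, and the control group (2 libraries) was cultured without it. All cells shared a culture on mitomycin C-treated mouse embryonic fibroblasts with LIF and serum replacement, and the protocol describes a sort for viable cells that was meant to leave out the feeders. As written, that protocol picks mESC by CD90.2 and excludes feeders by CD326, whereas Epcam, the gene of CD326, is known as a marker of mESC and Thy1, the gene of CD90, as one of fibroblasts. Epcam stood at 280.4 to 347.4 CPM (counts scaled to a common library size) and Thy1 at 8.897 to 25.56 CPM over the 4 libraries, and how far the sort removed feeder cells was not tested. Selection of YFP+ cells is described for the 4-OHT cultures alone, and the labels give no group with 4-OHT and intact Ogt, so loss of Ogt, the 4-OHT itself and the YFP gate cannot be told apart. The recombinase and what drives it are not named in the labels. The labels do not say whether the libraries of a group came from separate cultures or from several clones, so the p-values measure the spread between these libraries, which may be technical.

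The HUSH complex joins TASOR, a scaffold, to MPP8 (gene Mphosph8), a chromodomain protein that binds methylated H3K9, and to periphilin (gene Pphln1). It works with the ATPase MORC2 and with SETDB1, which trimethylates H3K9 and is held stable in the nucleus by ATF7IP. In embryonic stem cells KRAB zinc finger proteins bind retrotransposons and recruit TRIM28 (KAP1), which brings SETDB1 and HP1 to the site, while EHMT1 (GLP) dimethylates H3K9 together with EHMT2 (G9a). HP1 proteins bind the methylated lysine through a chromodomain. This machinery is known in embryonic stem cells for holding endogenous retroviruses and young LINE elements silent.

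Of the 10 genes, 9 fell in Ogt iKO cells and 0 rose at an adjusted p under 0.05 (edgeR quasi-likelihood test, Benjamini-Hochberg over 14525 genes tested). The largest falls were those of Cbx3, to 59.2% of the control level, Tasor, to 60.2%, Cbx1, to 63.7%, and Trim28, to 64.7%. Setdb1, the methyltransferase that TRIM28 recruits and ATF7IP stabilises, had 109% of its control level, a difference that did not pass the test. Over all genes tested 32.0% were called lower and 33.2% higher, so calls were common in this comparison. The 2 groups did not overlap for any of the 10 genes, as for 83.2% of all genes tested. The median log2 fold change of the 10 genes was -0.38, against 0.024 for all genes tested. No gene of the 10 rose at an unadjusted p under 0.05 either, and DESeq2 also called 9 lower and 0 higher. All 10 passed the filter on low counts, and all were detected in every library.

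**Figure D1:**
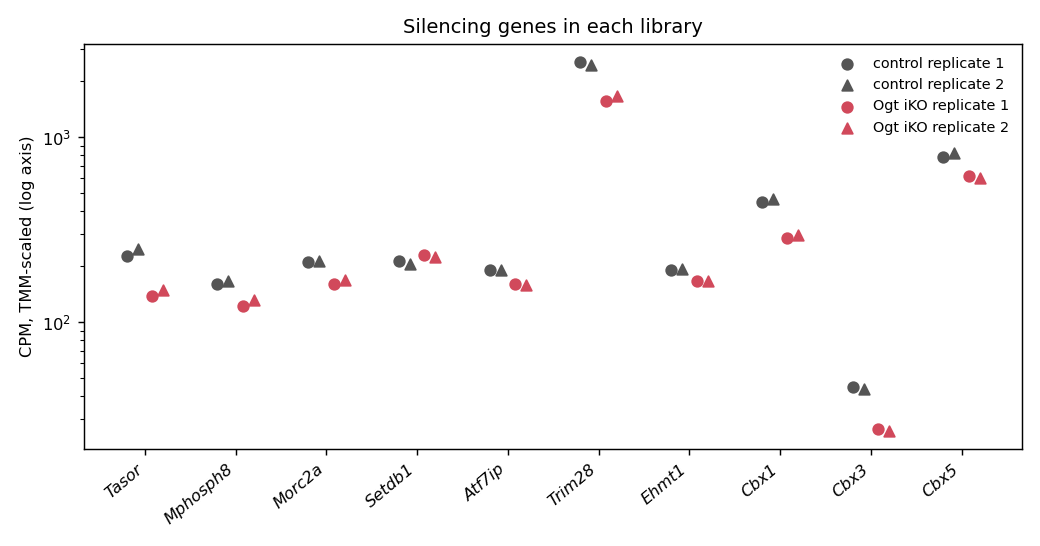
Level of each of the 10 silencing genes in each library, in CPM (counts scaled to a common library size, after TMM) on a log axis. Points are single libraries, grey for control and red for Ogt iKO, with circles for replicate 1 and triangles for replicate 2; the red points lie below the grey for 9 genes and above them for Setdb1.

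The calls of the genes with small changes depended on how the libraries were scaled. CPM values are counts scaled to a common library size, here after TMM, which assumes that most genes do not change. Scaling by library totals alone raised the median over all genes from 0.024 to 0.193 on the log2 scale, and raised each of the 10 genes with it. The median of the 10 genes went from -0.38 to -0.21. Under library totals 7 of the 10 were called lower, against 22.6% of all genes, and 1, Setdb1, was called higher, against 42.1% of all genes. The 2 calls lost were those of Atf7ip (log2 fold change -0.098, adjusted p = 0.130, edgeR) and Ehmt1 (-0.047, adjusted p = 0.444, edgeR). The changes that follow are on the TMM scale unless a ratio within a library is given.

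**Figure D2:**
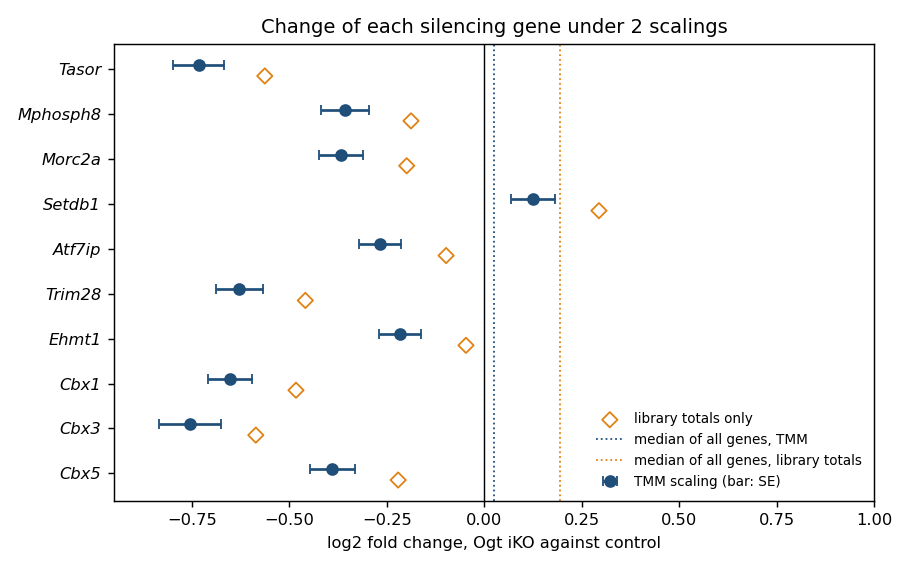
Log2 fold change (Ogt iKO against control) of each gene under TMM scaling, with its standard error as a bar, and under library totals only, as open diamonds without error. Dotted lines mark the median of all genes under each scaling (0.024 and 0.193); library totals shift every gene to the right, and Setdb1 is the one gene to the right of 0.

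Library totals ran from 14668489 to 16504204 counts, and a count of 0 would have allowed up to 3 counts, or 0.182 to 0.205 CPM, an upper limit that covers counting error only. Ogt, the targeted gene, was low in both libraries labelled Ogt iKO (437 and 389 counts, against 2963 and 3108 in the controls), at 12.9% of the control level. Of 10 defining markers of embryonic stem cells none was at 0 in any library, and 9 were called lower in Ogt iKO, beside 32.0% of all genes. Under library totals 8 were called lower, beside 22.6% of all genes, and under upper-quartile scaling 8. The summed level of these markers was 2531 and 2859 CPM in Ogt iKO against 4145 and 4181 CPM in control (CPM of raw totals). Of 18 fibroblast markers none was at 0 in any library, 5 were higher and 0 lower, and their summed level was 4181 CPM in Ogt iKO replicate 1 against 1577 CPM in Ogt iKO replicate 2 and 1446 and 1616 CPM in the controls. Ogt iKO replicate 1 thus stood apart in fibroblast markers. In bulk RNA, fewer cells of a type and less RNA per cell cannot be told apart. Without Ogt iKO replicate 1, 12 of the 18 fibroblast markers were lower and 5 higher, while 9 of the 10 silencing genes were still lower and 0 higher, with a median log2 fold change of -0.36 (29.9% of all genes lower and 30.3% higher in that fit, which assumes that the lone Ogt iKO library varies like the controls).

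The promoters of the 10 genes shared a feature that the choice of genes did not use. RefSeq windows of 300 bases (250 before and 50 after each start, GRCm38.p6) were found for all 10 genes, 13 windows in all. The GC box GGGCGG, the site of SP and KLF factors, was present on one strand or the other in at least 1 window of each of the 10 genes and in 11 of the 13 windows, against 35.7% of all 32851 windows. That share counts windows, not genes, and takes in genes with little or no RNA here. A share over expressed genes alone was not computed, so whether the feature is particular to the 10 genes was not tested. The number of CpG dinucleotides over the 13 windows ran from 0 in the second Morc2a window to 46 in the first, where the median of all windows was 7. The second lowest was a Cbx5 window with 8, followed by the single Setdb1 window with 15. The Setdb1 window was the one member window with the ETS motif CCGGAAG, present on either strand in 8.86% of all windows. The motifs were chosen after the values had been seen. The windows of Setdb1, the gene not called, and of Tasor and Cbx1, which had the largest falls apart from Cbx3, are printed to set them side by side, 5′ to 3′ on the gene's strand, with each GC box in capitals (CCGCCC where it lies on the other strand). They lie at chr3:95357153-95357452 (minus strand), chr14:27428584-27428883 (plus strand) and chr11:96788885-96789184 (plus strand).
Setdb1: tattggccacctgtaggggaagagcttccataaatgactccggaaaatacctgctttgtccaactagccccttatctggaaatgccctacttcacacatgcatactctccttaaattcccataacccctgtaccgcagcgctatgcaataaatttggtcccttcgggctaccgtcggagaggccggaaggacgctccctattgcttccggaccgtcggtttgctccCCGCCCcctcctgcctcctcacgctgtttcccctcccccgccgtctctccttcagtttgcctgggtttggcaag
Tasor: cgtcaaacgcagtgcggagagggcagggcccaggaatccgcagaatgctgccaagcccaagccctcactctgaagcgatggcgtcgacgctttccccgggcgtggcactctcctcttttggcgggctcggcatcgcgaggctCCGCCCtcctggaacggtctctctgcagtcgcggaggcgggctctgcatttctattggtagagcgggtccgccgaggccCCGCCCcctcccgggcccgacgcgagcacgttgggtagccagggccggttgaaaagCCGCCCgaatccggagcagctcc
Cbx1: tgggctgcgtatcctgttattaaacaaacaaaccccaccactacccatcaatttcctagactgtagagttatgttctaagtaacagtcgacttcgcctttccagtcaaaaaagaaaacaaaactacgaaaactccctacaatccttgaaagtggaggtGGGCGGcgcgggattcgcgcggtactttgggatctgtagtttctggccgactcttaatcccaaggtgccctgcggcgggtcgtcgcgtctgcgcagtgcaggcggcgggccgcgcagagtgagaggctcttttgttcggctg

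The Tasor window held 3 GC boxes and 32 CpG, the Cbx1 window 1 and 22, and the Setdb1 window 1 and 15. Other motifs were searched on both strands too, each counted on its own whether or not it overlapped another. The E2F motif TTTGGCGC was in 1 of the 13 windows (Cbx3) against 0.514% of all windows, and TTTCCCGC in 0 against 1.07%. The E-box CACGTG was in 1 (Cbx5) against 7.15%, and the SOX motif CTTTGTT in 2 (of Cbx3 and Cbx5) against 5.85%. The NRF1 core GCGCATGCG was in 0 against 1.75%, and the YY1 core AAGATGGCG in 0 against 1.40%. The GC box itself contains a CpG, so the CpG number and the GC box are not separate measures, and the matches describe the letters of these windows only.

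Tasor, the scaffold of HUSH, fell most among the HUSH genes. It lies on chromosome 14 from 27428834 to 27483555 (plus strand, GRCm38, GENCODE) and stood at 139 and 148.7 CPM in the Ogt iKO libraries against 229.2 and 248.6 CPM in the controls. Both Ogt iKO libraries lay well below both controls, and the replicates of a group differed far less than the groups did. Its log2 fold change was -0.73 with a standard error of 0.0652 (edgeR, adjusted p = 2.85e-05). Part of the exon length of Tasor, 12.94%, lies under exons of Ccdc66 on the opposite strand, and how the counting used strand is not given in the sources used here. Ccdc66 itself had 335 to 465 counts per library against 2306 to 3813 for Tasor, and a log2 fold change of -0.49.

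Mphosph8, the gene of the H3K9 methyl reader MPP8, fell less. On chromosome 14 from 56668248 to 56697430 (plus strand), it had 122.6 and 132.3 CPM in Ogt iKO against 160 and 166.4 CPM in control, or 78.1% of control (-0.36 ± 0.0626 SE on the log2 scale, with an edgeR adjusted p = 0.00113). The groups did not overlap, but the change was close to the size that a test against a fold of 1.2 (glmTreat) no longer called, with an adjusted p = 0.0536. Under library totals its value was -0.188 on the log2 scale. An exon of Gm16973, at 32 to 49 counts per library, covers 10.71% of its exon length on the opposite strand.

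Morc2a, which encodes the MORC2 ATPase that compacts chromatin with HUSH, fell by a like amount. Located on chromosome 11 from 3649191 to 3690477 (plus strand), it had 161.6 and 169.7 CPM in Ogt iKO against 212.7 and 214.8 CPM in control, or 77.5% of control (-0.37 ± 0.0563 SE on the log2 scale, with an edgeR adjusted p = 0.000521), and -0.199 under library totals. Its start lies 482 bases from that of Tug1, a noncoding RNA gene on the opposite strand whose exons cover 7.52% of the Morc2a exon length. Tug1 moved the other way, with a log2 fold change of 0.20 (adjusted p = 0.0401, edgeR), a call that was not made without Ogt iKO replicate 1 (0.10).

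Within a library Tasor was lower relative to Mphosph8 and to Morc2a in Ogt iKO than in control, while those 2 genes differed from control by nearly the same amount relative to Setdb1 (-0.48 and -0.49 in log2 ratio). These pairs were chosen after the counts were seen, so they restate the larger fall of Tasor free of scaling. The log2 ratio of Tasor to Mphosph8 counts was 0.18 and 0.17 in Ogt iKO and 0.52 and 0.58 in control, and that of Tasor to Morc2a was -0.22 and -0.19 against 0.11 and 0.21. Such ratios do not depend on scaling between libraries, and the groups did not overlap for either. The third core subunit went the other way: Pphln1, the gene of periphilin, stood at 139.2 and 138.1 CPM in Ogt iKO against 99.83 and 92.90 CPM in control and rose by 0.52 on the log2 scale (SE 0.0619, adjusted p = 0.000123, edgeR), under every scaling tried. The log2 ratio of Pphln1 to Tasor counts went from -1.20 and -1.42 in control libraries to 0.00 and -0.11 with 4-OHT. An exact two-sided permutation test of 2 against 2 libraries cannot give a p below 0.333, which is what each of these ratios gave.

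Setdb1, the H3K9 methyltransferase, was the exception among the 10. It lies on chromosome 3 from 95323525 to 95357202 (minus strand) and had 232.1 and 225.4 CPM in Ogt iKO against 213.7 and 205.9 CPM in control. Both Ogt iKO libraries lay above both controls by a small margin, at 0.12 on the log2 scale with a standard error of 0.0557 (edgeR, adjusted p = 0.0777). The call was made under library totals (0.294, adjusted p = 0.0016, edgeR) and under upper-quartile scaling (0.167, adjusted p = 0.0272, edgeR), and its value was positive in every alternative tried, from 0.089 to 0.294. Its count is uncertain in some of its length: 4.73% of its exon length lies under opposite-strand exons that include those of Cers2, which rose by 0.58 (adjusted p = 7.39e-05, edgeR), and 7.96% of the 50-base words of its transcripts also occur in transcripts of other genes. Their part in the Setdb1 value was not tested.

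The size of the gap to Setdb1 can be given free of scaling between libraries, as a ratio of counts within each library. Setdb1 was taken as the denominator after its values were seen, so the direction of these ratios follows from the values already given and is no further result. The differences in log2 ratio between Ogt iKO and control ran from -0.34 for Ehmt1 to -0.88 for Cbx3. The ratio of Trim28 to Setdb1, the corepressor to its methyltransferase, stood on the log2 scale at 2.75 and 2.88 in Ogt iKO against 3.57 and 3.58 in control.

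Trim28, the corepressor that KRAB zinc finger proteins recruit, was the most abundant of the 10 genes. It lies on chromosome 7 from 12999114 to 13031035 and had 1563 and 1661 CPM in Ogt iKO against 2529 and 2455 CPM in control. The 2 groups were far apart relative to their replicates, and the log2 fold change was -0.63 with a standard error of 0.0604 (edgeR, adjusted p = 4.16e-05). None of its exon length is shared with another gene and none of its 50-base words occurs in another gene's transcripts.

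Atf7ip, the gene of the SETDB1 cofactor that protects the enzyme from degradation, had a small fall. The gene, on chromosome 6 from 136506167 to 136610862 (plus strand), had 160.4 and 158 CPM in Ogt iKO against 192.5 and 190.8 CPM in control, or 83.1% of control (-0.27 ± 0.0542 SE on the log2 scale, with an edgeR adjusted p = 0.00251). The replicates agreed closely, but the fall was not called under library totals, as given above, or against a fold of 1.2 (adjusted p = 0.348, edgeR's glmTreat).

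Ehmt1, the gene of the H3K9 dimethyltransferase GLP, had the smallest of the 9 falls. Its locus on chromosome 2 runs from 24789928 to 24919614 (minus strand), and it had 166.5 and 166.3 CPM in Ogt iKO against 192.3 and 194.4 CPM in control, or 86.1% of control (-0.22 ± 0.0539 SE on the log2 scale, with an edgeR adjusted p = 0.00715). It too was not called against a fold of 1.2 (adjusted p = 0.688, edgeR's glmTreat). Its partner gene Ehmt2, which encodes G9a, did not pass the test, with a log2 fold change of 0.07 (adjusted p = 0.345, edgeR), and was called higher under library totals (0.24). The log2 ratio of Ehmt1 to Ehmt2 counts was -0.03 and -0.19 in Ogt iKO against 0.19 and 0.17 in control.

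The 3 HP1 genes all fell, under every scaling tried, though under library totals the value of Cbx5 was -0.221. Cbx1, the gene of HP1 beta, lies on chromosome 11 from 96789127 to 96808640 and had 283.6 and 295.1 CPM in Ogt iKO against 445.1 and 464.2 CPM in control (-0.65 ± 0.0573 SE on the log2 scale, with an edgeR adjusted p = 2.67e-05). Cbx5, the gene of HP1 alpha, lies on chromosome 15 from 103191544 to 103239816 and had 614.7 and 602.8 CPM in Ogt iKO against 775.5 and 820.3 CPM in control (-0.39 ± 0.0579 SE on the log2 scale, with an edgeR adjusted p = 0.000439). For both genes the lowest control exceeded the highest Ogt iKO library by more than the spread within either group. Cbx3, the gene of HP1 gamma, lies on chromosome 6 from 51470360 to 51483704 and had 26.56 and 25.98 CPM in Ogt iKO against 44.97 and 43.75 CPM in control (-0.76 ± 0.0792 SE on the log2 scale, with an edgeR adjusted p = 6.49e-05). Its low level is uncertain: 7.39% of its 50-base words also occur in transcripts of 13 other genes, led by the processed pseudogenes Cbx3-ps6, Cbx3-ps7 and Cbx3-ps8, and how the counting treated reads that map to several places is not given in the sources used here.

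Among the HP1 genes, Cbx5 had a larger share and Cbx1 a smaller share in both Ogt iKO libraries than in both controls. Among HP1 counts divided by exon length, Cbx5 held 49.1% and 47.7% in the Ogt iKO libraries and 43.5% and 44.0% in the controls. Cbx1 held 47.7% and 49.2% against 52.7% and 52.5%. Cbx3 held 3.19% and 3.09% against 3.79% and 3.53%, shares that carry the uncertainty of its count given above. The difference was 4.62 percentage points for Cbx5 and -4.10 for Cbx1, and the groups did not overlap for any of the 3 genes (exact two-sided permutation p = 0.333 for each, the smallest possible). With each library left out in turn the Cbx5 difference ran from 3.92 to 5.31 points.

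**Figure D3:**
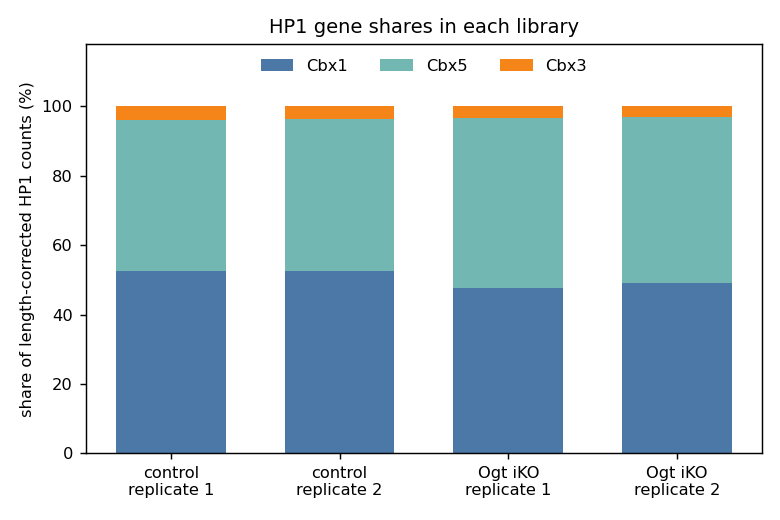
Share of Cbx1, Cbx5 and Cbx3 in the summed HP1 counts of each library, each count divided by its gene's exon length (y axis, percent). Bars are single libraries without error bars; Cbx5 takes 49.1% and 47.7% in Ogt iKO against 43.5% and 44.0% in control.

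Cbx3 and Cbx5 each lie head to head with an RNA-binding protein gene, and both neighbours fell too, where 32.0% of all genes were called lower. The third tested neighbour of this kind, Tug1 beside Morc2a, was called higher, as described with Morc2a. The start of Cbx3 lies 466 bases from that of Hnrnpa2b1, which had 16928 and 16897 counts after 4-OHT and 21928 and 21475 in the control libraries (-0.44 ± 0.0642 SE on the log2 scale, with an edgeR adjusted p = 0.000411). The start of Cbx5 lies 616 bases from that of Hnrnpa1, with 318 and 328 counts against 492 and 483 (-0.67 ± 0.0984 SE on the log2 scale, with an edgeR adjusted p = 0.000411). Whether the treatment of reads that map to several places lowered the Hnrnpa1 counts was not tested. Of the remaining genes, Trim28 starts 922 bases from Slc27a5 by its outermost GENCODE boundary, at 12999114 on chromosome 7. Its RefSeq promoter window lies elsewhere, at chr7:13023902-13024201, and by that start Slc27a5 is not within 1000 bases. Slc27a5, a liver bile acid enzyme gene, had 4 to 9 counts per library and was not tested. Mphosph8 starts 124 bases from Gm4032, a transcribed processed pseudogene, which was not analysed here.

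Levels can be set side by side only per length, here as TMM-scaled CPM per kb of exon. In the controls Trim28 stood first at 599 ± 12.6 (SD, n = 2), followed by Cbx1 at 106 ± 3.16, Cbx5 at 88.6 ± 3.51, Mphosph8 at 45.5 ± 1.25, Morc2a at 33.3 ± 0.233, Setdb1 at 30.6 ± 0.797, Ehmt1 at 23.8 ± 0.185, Tasor at 17.5 ± 1.00, Atf7ip at 9.25 ± 0.0586 and Cbx3 at 7.40 ± 0.144. No neighbours in that order overlapped. The last place of Cbx3 carries the uncertainty of its count from shared words, which the SD does not measure. In Ogt iKO the order differed at 1 place, with Setdb1 (33.4 ± 0.686) above Morc2a (25.8 ± 0.895), and Cbx1 (67.7 ± 1.90) and Cbx5 (67.6 ± 0.935) no longer differed beyond their spread. Dividing by the longest transcript in place of all exons, an alternative chosen after seeing the data, kept the control order but left Morc2a overlapping Setdb1 and Ehmt1 overlapping Tasor, and put Atf7ip above Tasor in Ogt iKO. By that length Cbx1 and Cbx5 did not overlap in Ogt iKO, at 119 and 124 against 69.8 and 68.5 CPM per kb, so their equal levels hold for the exon length alone.

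The wider machinery was taken from lists on H3K9 methylation and silencing, with 65 genes beside the 10. Of these 62 were tested, and 23 were lower and 10 higher, with a median log2 fold change of -0.05, beside 32.0% lower and 33.2% higher over all genes tested. Under library totals 22 were lower and 23 higher, beside 22.6% and 42.1% of all genes. The counts of the single lists that follow are of 5 to 15 genes each and are given as descriptions, to be read beside those shares. The lists were chosen with earlier results of these data known. Among HUSH relatives and MORC ATPases, 3 of 5 tested genes rose and 1 fell. Morc4, a MORC ATPase gene, rose by 1.82 from 13.96 and 10.82 CPM to 46.44 and 41.00 CPM, and Morc3, whose product acts with DAXX and H3.3 in silencing, fell by 0.33.

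Among SETDB1 cofactors, 2 of 5 fell and 0 rose. Trim24, a relative of Trim28 that keeps some endogenous retroviruses silent in liver, fell by 0.65 and Atf7ip2, a paralogue of Atf7ip, fell by 0.68 (12.05 and 14.31 CPM against 21.26 and 20.86 CPM). Resf1, which encodes a SETDB1 partner in embryonic stem cells, had a log2 fold change of -0.15, and Trim33 one of 0.10, neither called. Trim33 was called higher under library totals (0.27).

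Of 8 other genes of H3K9 methyltransferases and their partners, 2 fell and 0 rose. Cdyl2, a chromodomain gene, went from 78.37 and 98.44 CPM to 30.59 and 31.85 CPM, the largest fall of the 62 genes (-1.50 ± 0.112 SE on the log2 scale, with an edgeR adjusted p = 1.21e-05), and its relative Cdyl fell by 0.44. Wiz, a zinc finger partner of G9a and GLP, had a log2 fold change of -0.10 and was not called. Under library totals 4 of these 8 genes were called higher.

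Of 8 HP1 partner genes, 4 fell and 2 rose. The strongest calls were falls of Incenp, a chromosomal passenger protein gene, at -1.07 on the log2 scale, Adnp2, a homologue of the HP1-binding ADNP, at -0.88, and Sgo1, the cohesin protector shugoshin, at -0.56. Of 11 genes for remodelers and H3.3 deposition, 6 fell and 0 rose (6 and 4 under library totals), with log2 fold changes of -0.90 for Uhrf1, the reader of hemimethylated DNA, -0.75 for Zmym2 and -0.67 for Cdca7, the activator of the remodeler HELLS.

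Of 10 tested H3K9 demethylase genes 4 were lower and 2 higher (4 and 4 under library totals). Kdm4a fell by 0.56, Kdm4b by 0.79 and Kdm3a by 0.72. Of 15 tested SUMO genes 4 fell and 3 rose (3 and 5 under library totals). Senp7, a SUMO protease gene, rose by 1.73 from 5.234 and 5.15 CPM to 18.13 and 16.25 CPM, the SUMO ligase gene Pias1 rose by 0.54 and Pias4 fell by 0.56. Each of the genes named here as risen or fallen kept its call under every other scaling tried and without Ogt iKO replicate 1. Sumo2 had 3 to 5 counts per library and did not pass the filter. How reads that map to several places were counted is not given, so this low count need not mean a low level.

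**Figure D4:**
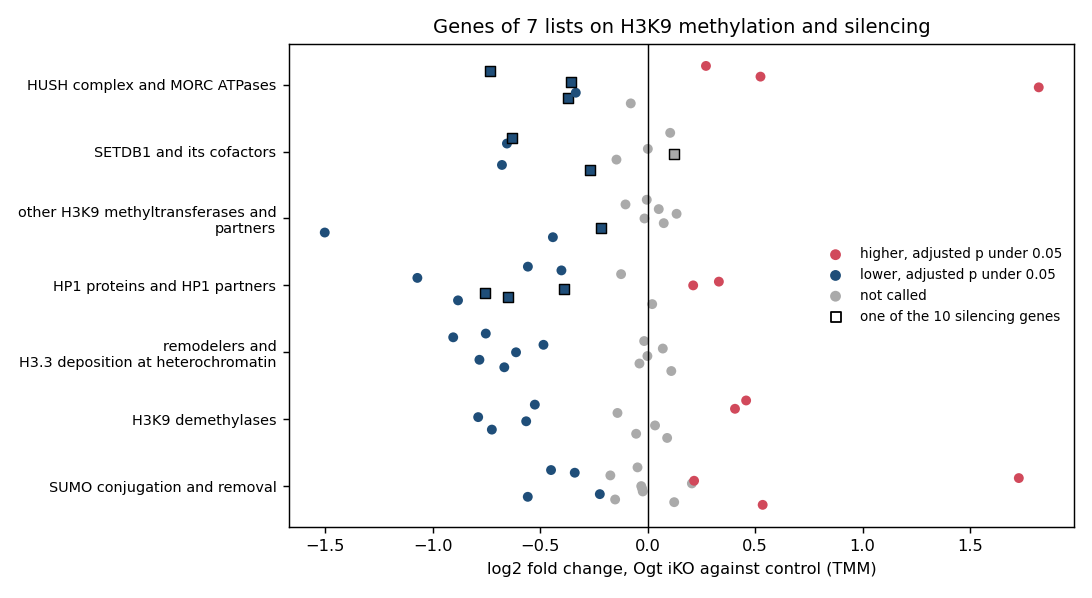
Log2 fold change (Ogt iKO against control, TMM scaling, x axis) of each tested gene in lists on H3K9 methylation and silencing. Red and blue points are genes called higher and lower at an adjusted p under 0.05, grey points are not called, and squares are the 10 silencing genes, of which 9 are blue and Setdb1 is grey.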

How the data were processed

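For each of 4 mESC libraries the authors deposited a table of raw counts per gene symbol, without normalization. STAR, Picard and mm10 are named in the submitters' processing notes, and versions, annotation, strand setting and the handling of multi-mapping reads are not given in the sources used here. Each table held 25239 symbols and 0 rows naming no gene. The test was the quasi-likelihood fit of edgeR 4.0.16 (R 4.3.3) over all 4 libraries (TMM, filterByExpr, no covariate, Benjamini-Hochberg over 14525 genes, called at an adjusted p under 0.05), run after a test on simulated counts with 200 changed genes. Standard errors came from the fold change and its F statistic. Groups came from the titles. Positions, exon lengths and 50-base words came from GENCODE M21 (GRCm38, the assembly of mm10), and promoter windows from RefSeq. HP1 shares and ratios used exact permutation tests. The ratios, the motifs and the longest-transcript order were added after seeing the data. The 10 genes and all lists were chosen with earlier results of these data known. Named are the 10 genes, Ogt, up to 3 called genes per list by adjusted p (with up to 2 uncalled ones where 2 or fewer were called), divergent neighbours within 1000 bases and opposite-strand overlaps. Alternatives were RLE, library-total and upper-quartile scaling, DESeq2 1.42.0, other filters, a robust fit, the replicate number as a block, stricter thresholds, other lengths and leaving out each library. The replicates of a group differed by more than sampling noise (chi-square per degree of freedom 7.04 for Ogt iKO and 4.25 for control), and the common biological coefficient of variation was 7.82%. Both the number of libraries, 2 per group, and the depth of 14668489 to 16504204 counts limit the precision, the depth most for genes with few counts.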

Additional observations from a re-analysis of the deposited data

How the results depend on the processing

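The count of 9 lower genes among the 10 held under RLE and upper-quartile scaling, DESeq2, both other filters, the robust fit, an adjusted p under 0.01 and leaving out each library. It was 7 under library totals and 6 against a fold of 1.2 (glmTreat). Shares of all genes called lower or higher were computed for TMM, library totals and the fit without Ogt iKO replicate 1 only. Counts under the other alternatives therefore have no share beside them. The count of higher genes was 1 under library totals and 1 under upper-quartile scaling, in both cases Setdb1. Of 154 comparisons with the main fit for the 10 genes and Ogt, 147 kept their direction and side of the threshold. The other 7 lost or gained a call, and none changed sign. The adjusted p under 0.01, the robust fit and the test against a fold of 1.2 gave the fold changes of the main fit again, so they say nothing about sign. For the 65 other silencing genes, the count of higher genes went from 10 to 23 under library totals and to 5 against a fold of 1.2, and ran from 6 (without control replicate 1) to 11 when 1 library was left out. A test against a fold is stricter by construction. The cause of the other differences was not tested. With the replicate number as a block, 9 of the 10 genes were lower and 0 higher, 11 of the others were higher and 23 lower, and calls over all genes went from 9478 to 9641. The deviations of the libraries numbered 1 correlated at 0.086, and nothing in the labels ties equal numbers together, so the samples share only a number. The shares of the HP1 genes kept their direction without length correction (4.33 points for Cbx5) and with the longest transcript (4.10). Cbx3, with the fewest counts of the 10 genes (403 to 696 per library), also had the largest standard error (0.0792).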
